A study of Homo sapiens with 9 samples.

Results

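The genes described here are the machinery and regulators of DNA replication and S phase, taken as a fixed list of 49 gene symbols out of the 18364 genes of the deposited table. All 49 were found and all 49 passed the filter on low values. The RNA came from 9 intracranial tumours that LN229 cells, an established line from a human glioblastoma, formed in nude mice by the terminal stage. In 6 tumours the cells carried TAZ-4SA, a mutant of TAZ (a co-activator of transcription) in which serines phosphorylated by the Hippo pathway kinases are replaced, and in 3 tumours they carried the empty vector (EV). Both groups therefore shared the parent line, the host and the site. The labels do not state the promoter that drives TAZ-4SA, whether either line is a clone, the age or sex of the mice, or which animal each tumour came from, so a p-value speaks only to the spread among these 9 samples. Values are CPM, read counts scaled to library size, recovered from the deposited log2 table. The comparison asks what changes in expression when TAZ is active in glioblastoma tumours.

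Before S phase, the origin recognition complex, CDC6 and CDT1 load the MCM2-MCM7 helicase onto origins, and geminin prevents loading a second time. CDC7 with its partner DBF4 then fires the origins, CDC45 and the GINS complex join the helicase, and the clamp PCNA, its loader RFC and the polymerases copy the strands. E2F transcription factors, held back by RB in quiescent cells, drive many of these genes in late G1, through promoter sites close to the start of transcription.

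Letters of such sites were found in the promoters of 23 of the genes. E2F-type sites were searched as TTTCCCGC, TTTGGCGC, TTTCGCGC and TTTGCCGC, on both strands, in RefSeq windows of 300 bases (250 before to 50 after a start, GRCh38.p14), and overlapping matches on opposite strands counted separately, as occurred in MCM2 and MCM6. A window was given for 43 of the 49 genes, and 23 of these (53.49%) held at least 1 E2F-type match in any of their windows, against 6.32% of 12112 genes in the fit. The 31 matches lay between positions -187 and 27 from the start, with a median of -35. The CCAAT box, searched as CCAAT, was found in 58.14% of the 43 genes against 42.88%. The CHR element of late cell cycle genes, searched as TTTGAA and TTCGAA, was found in 6.98% against 15.93%. A match is a run of letters and shows no binding.

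The windows shown are those of the 5 genes that both differed between the groups and held an E2F-type match, since they set the promoter letters beside opposite directions of change: MCM7 (chr7:100101348-100101647, minus strand), MCM3 (chr6:52284693-52284992, minus strand), E2F1 (chr20:33686336-33686635, minus strand), LIG1 (chr19:48170295-48170594, minus strand) and MCM8 (chr20:5950402-5950701, plus strand). Each is written 5′ to 3′ on the strand of the gene, and capitals mark the E2F-type letters or their reverse complement.
MCM7: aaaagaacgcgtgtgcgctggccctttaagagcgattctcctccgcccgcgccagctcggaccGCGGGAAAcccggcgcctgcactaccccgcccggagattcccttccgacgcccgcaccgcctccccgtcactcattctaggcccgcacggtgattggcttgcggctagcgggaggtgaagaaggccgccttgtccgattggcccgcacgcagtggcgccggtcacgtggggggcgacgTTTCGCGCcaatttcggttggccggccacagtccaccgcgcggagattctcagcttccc
MCM3: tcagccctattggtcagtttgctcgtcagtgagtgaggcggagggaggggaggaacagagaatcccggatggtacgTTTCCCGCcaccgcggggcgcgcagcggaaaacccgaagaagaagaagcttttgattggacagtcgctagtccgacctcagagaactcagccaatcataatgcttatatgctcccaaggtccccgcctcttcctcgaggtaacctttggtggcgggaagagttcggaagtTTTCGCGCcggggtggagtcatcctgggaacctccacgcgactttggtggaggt
E2F1: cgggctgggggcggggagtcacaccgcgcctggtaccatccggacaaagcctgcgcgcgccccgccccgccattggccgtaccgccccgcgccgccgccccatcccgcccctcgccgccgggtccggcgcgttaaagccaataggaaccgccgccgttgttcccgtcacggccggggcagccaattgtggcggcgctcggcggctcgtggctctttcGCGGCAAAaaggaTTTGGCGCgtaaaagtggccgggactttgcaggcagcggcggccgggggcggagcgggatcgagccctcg
LIG1: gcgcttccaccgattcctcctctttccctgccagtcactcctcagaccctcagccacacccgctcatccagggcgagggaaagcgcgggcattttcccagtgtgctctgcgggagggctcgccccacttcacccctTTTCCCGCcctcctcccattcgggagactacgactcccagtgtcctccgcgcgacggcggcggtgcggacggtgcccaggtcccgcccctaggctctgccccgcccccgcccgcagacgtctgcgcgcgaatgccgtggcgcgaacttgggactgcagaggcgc
MCM8: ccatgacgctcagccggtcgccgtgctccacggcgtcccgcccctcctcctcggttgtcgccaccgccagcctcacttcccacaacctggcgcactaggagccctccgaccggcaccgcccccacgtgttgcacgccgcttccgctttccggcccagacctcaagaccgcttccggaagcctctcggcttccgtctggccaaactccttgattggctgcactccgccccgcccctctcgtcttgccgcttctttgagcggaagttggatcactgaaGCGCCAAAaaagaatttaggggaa
The first 4 of these genes had lower levels in TAZ-4SA tumours and MCM8 had higher levels. Genes are termed called where the limma adjusted p between the groups was under 0.05. By call, the match was present in 4 of 6 genes lower in TAZ-4SA, 1 of 3 higher and 18 of 34 that were not called. RRM2, RFC1, RFC2 and POLD2 differed between the groups and had no match in their windows.

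The introduced gene was higher in the tumours labelled with it. WWTR1, which encodes TAZ, was at 218 to 449 CPM in the TAZ-4SA tumours and 116 to 123 CPM in the EV tumours (log2 fold change 1.44, limma adjusted p = 0.0024), and endogenous and introduced transcripts are not told apart here. Recovered totals were 3144861 to 31468135 reads in TAZ-4SA tumours and 17314672 to 21576264 in EV tumours, and 505 to 622 genes per EV library but 2990 to 7365 per TAZ-4SA library had 0 reads. Marker lists of other cell types were summed as well. Cells of the host would be mouse, the genes are human, and how mouse reads were treated is not given. The sums are therefore not a measure of host cells. Their called members are given beside the shares of all genes tested, 9.02% called higher and 13.3% lower. Summed over 6 neuronal markers, levels were 84.5 to 1291 CPM in TAZ-4SA and 29.7 to 133 CPM in EV, ranges that overlap, and only SYT1 was called (higher). Over 6 of 8 microglial and macrophage markers they were 65.7 to 178 against 28.1 to 39.5 CPM, and only CD68, at 32.9 to 142 against 12.6 to 22.7 CPM, was called (higher). The oligodendrocyte markers, 6 of 6, summed to 37.1 to 439 against 660.2 to 842 CPM, with 2 called lower (MAG and MYRF). The 5 astrocyte markers summed to 31.5 to 83.4 against 188 to 275 CPM, with S100B called lower and GJA1 higher. P2RY12 and MOG, defining markers of microglia and oligodendrocytes, had 0 reads in all 6 TAZ-4SA tumours and were at or under 0.193 and 0.174 CPM in EV, so both were near 0 in both groups and were not tested. The 8 glioma cell markers summed to 2433 to 3831 against 3166 to 3577 CPM, most of it VIM at 1480 to 2910 and 1616 to 2092 CPM. The members of that list diverged. NES was called lower with TAZ-4SA (99.9 to 258 against 1290 to 1360 CPM), and EGFR (279 to 512 against 8.15 to 12.4 CPM), CD44 and SOX9 were called higher. SOX2 and OLIG2 had 0 reads in 2 and 3 TAZ-4SA tumours and in no EV tumour. Endothelial markers, 5 of 6 in the table, stayed at or under 14.6 CPM in all 9 tumours, and 2 of 4 T cell markers at or under 7.74 CPM. Of these only CD8A was called (lower, log2 fold change -4.89, limma adjusted p = 0.0021). It was at or under 0.0615 CPM in TAZ-4SA and at 3.84 to 5.48 CPM in EV. The part of other cell types in the results below was not tested, and in bulk RNA fewer replicating cells and less RNA per cell cannot be told apart.

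Replication genes split in both directions. With TAZ-4SA, 3 of the 49 genes rose (MCM8, RFC1 and RRM2), 7 fell (MCM3, MCM5, MCM7, RFC2, POLD2, LIG1 and E2F1) and 39 did not pass the test, which was limma over 15578 genes with Benjamini-Hochberg adjustment at 0.05. These shares, 6.1% and 14.3%, lay near those of all genes tested, of which 9.02% were called higher and 13.3% lower. All 6 TAZ-4SA tumours lay above all 3 EV tumours for 3 genes (6.1%, against 10.8% of all genes) and below them for 13 (26.5%, against 21.3%). The median log2 fold change was -0.86 over the 49 genes and -0.85 over all genes tested, so the medians were close. The choice of background moved that comparison. Among the 11768 genes with a mean of 5 to 400 CPM the median was -0.58. With quantile normalization the medians became -0.66 for the 49 genes and -0.15 for all genes.

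The counts rested on few tumours. Without EV tumour 1, 0 genes were called higher and 2 lower. The counts were 0 and 3 without EV tumour 2, and 1 and 2 without EV tumour 3. Leaving out TAZ-4SA tumour 5 gave 5 and 10. Leaving out TAZ-4SA tumours 2, 3 and 4, the libraries with most genes undetected, gave 1 and 14, and leaving out tumours 5 and 6, which had the lowest totals, gave 6 and 5.

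**Figure D1:**
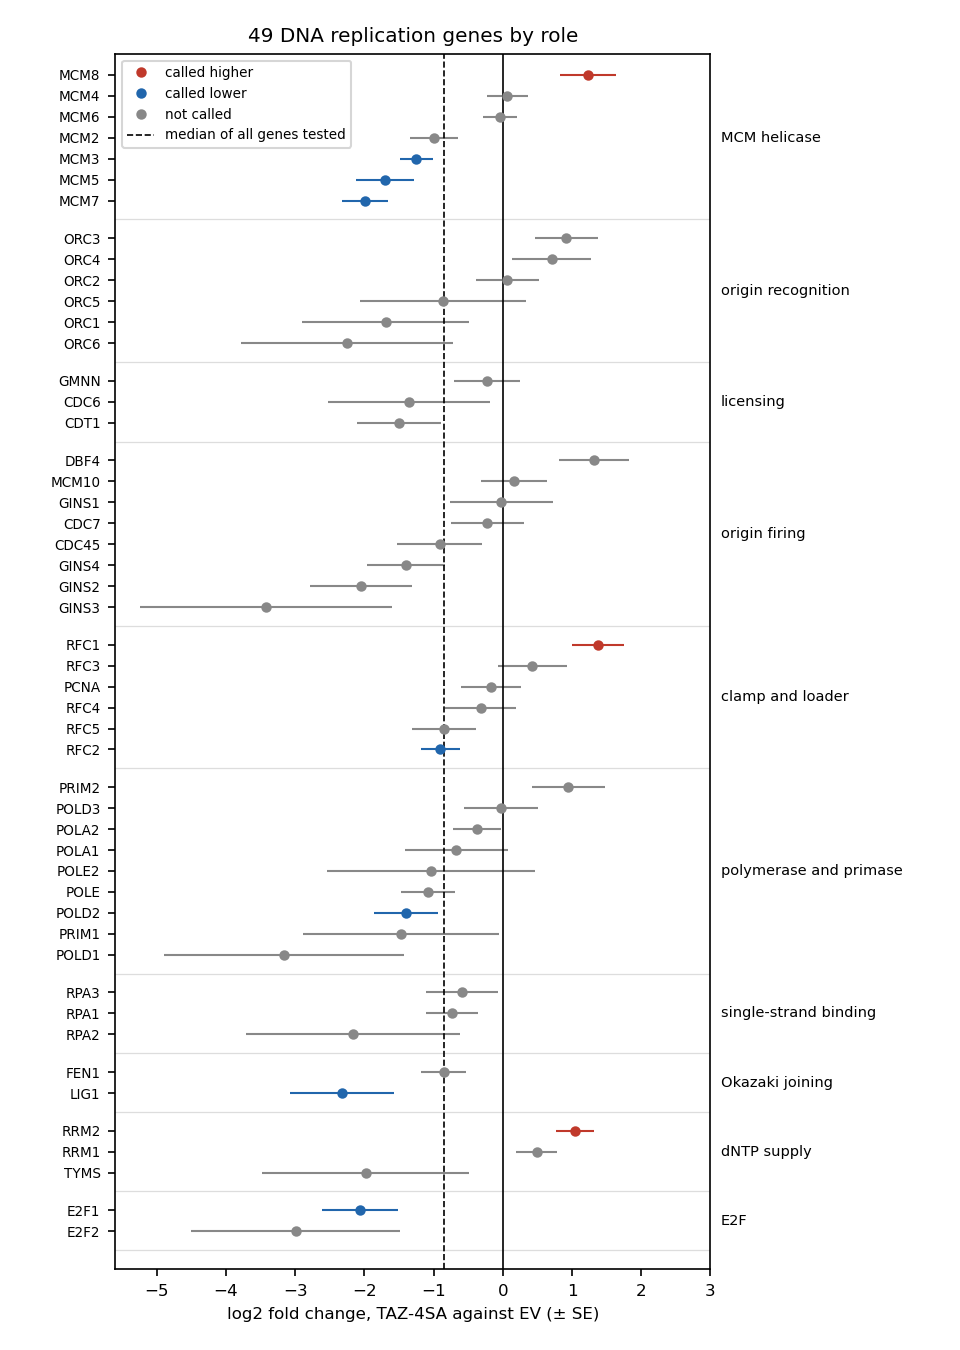
Log2 fold change of each of the 49 genes (x axis, TAZ-4SA against EV, bars are ± 1 SE from limma over 6 and 3 tumours), grouped by role. Red and blue points are the 3 genes called higher and the 7 called lower, grey points were not called, and the dashed line is the median of all genes tested, -0.85.

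In summed level the genes were lower with TAZ-4SA in every tumour. The CPM of the 49 genes added up to 2714 to 3436 in the TAZ-4SA tumours and 4499 to 5024 in the EV tumours. Much of that gap lay in a few abundant transcripts. MCM2 to MCM7 together contributed 675 to 1180 CPM in TAZ-4SA and 1814 to 2145 CPM in EV. Per kilobase of transcript, MCM7 was the most abundant of the 49 in EV tumours at 247 ± 45.6 CPM per kb (SD, n = 3) and PCNA the most abundant in TAZ-4SA tumours at 119 ± 58.5 CPM per kb (SD, n = 6), with MCM7 next at 65.0 ± 23.2 CPM per kb (SD, n = 6). The spreads of PCNA and MCM7 in TAZ-4SA tumours reach each other. The lowest in EV was ORC4 at 2.53 ± 0.376 CPM per kb (SD, n = 3), and the lowest in TAZ-4SA was POLA1 at 2.56 ± 1.22 CPM per kb (SD, n = 6), where the means of POLE2 and E2F2 lay within its spread.

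The MCM helicase subunits MCM7 and MCM3 had the smallest adjusted p of the 49 genes. MCM7 was at 207, 101, 276, 179, 257 and 133 CPM in TAZ-4SA tumours 1 to 6 and at 734, 592 and 861 CPM in EV tumours 1 to 3. Every TAZ-4SA tumour was under the lowest EV tumour by a wide margin, and the log2 fold change was -1.99 ± 0.33 (SE, limma adjusted p = 0.0015). The MCM7 interval overlaps AP4M1, MIR106B, MIR25 and MIR93 and the library kit does not keep the strand, so reads in the shared part cannot be assigned. In all, 9 of the 49 genes overlap another protein-coding gene, and the same limit holds for each.

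MCM3 was at 203, 135, 176, 139, 171 and 175 CPM in TAZ-4SA and at 446, 406 and 332 CPM in EV. The TAZ-4SA tumours were close to each other and all below EV (log2 fold change -1.25 ± 0.24, limma adjusted p = 0.0035). MCM5 was at 75.2, 63.7, 192, 77.1, 214 and 69.1 CPM in TAZ-4SA and at 329.6, 301 and 359 CPM in EV. Here TAZ-4SA tumours 3 and 5 stood above the other 4, with no overlap with EV (log2 fold change -1.71 ± 0.42, limma adjusted p = 0.013). Without EV tumour 1 or EV tumour 3, MCM5 was not called.

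The same ring holds subunits with no such change. MCM4 was at 227, 115, 209.5, 222, 285 and 198 CPM in TAZ-4SA and 199.6, 179 and 203 CPM in EV (log2 fold change 0.07 ± 0.29, limma adjusted p = 0.88), and its sign changed with the scaling. MCM6 was at 157, 133, 149.8, 173, 116 and 147 CPM in TAZ-4SA and 159, 142 and 145 CPM in EV (-0.04 ± 0.24, limma adjusted p = 0.93), also with a sign that changed with the scaling. For both the groups overlapped. MCM2 was at 64.8 to 165 CPM in TAZ-4SA and 194 to 245 CPM in EV, with groups apart but no call (-0.99 ± 0.35, limma adjusted p = 0.060). Outside the ring, MCM8, a helicase of homologous recombination, was at 51.8, 112, 77.2, 76.6, 60.2 and 177 CPM in TAZ-4SA and 40.2, 41.4 and 27.9 CPM in EV. TAZ-4SA tumour 6 was the highest and all 6 were above EV (1.23 ± 0.41, limma adjusted p = 0.048), a call lost in 15 of 23 alternatives, among them each that left out an EV tumour.

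**Figure D2:**
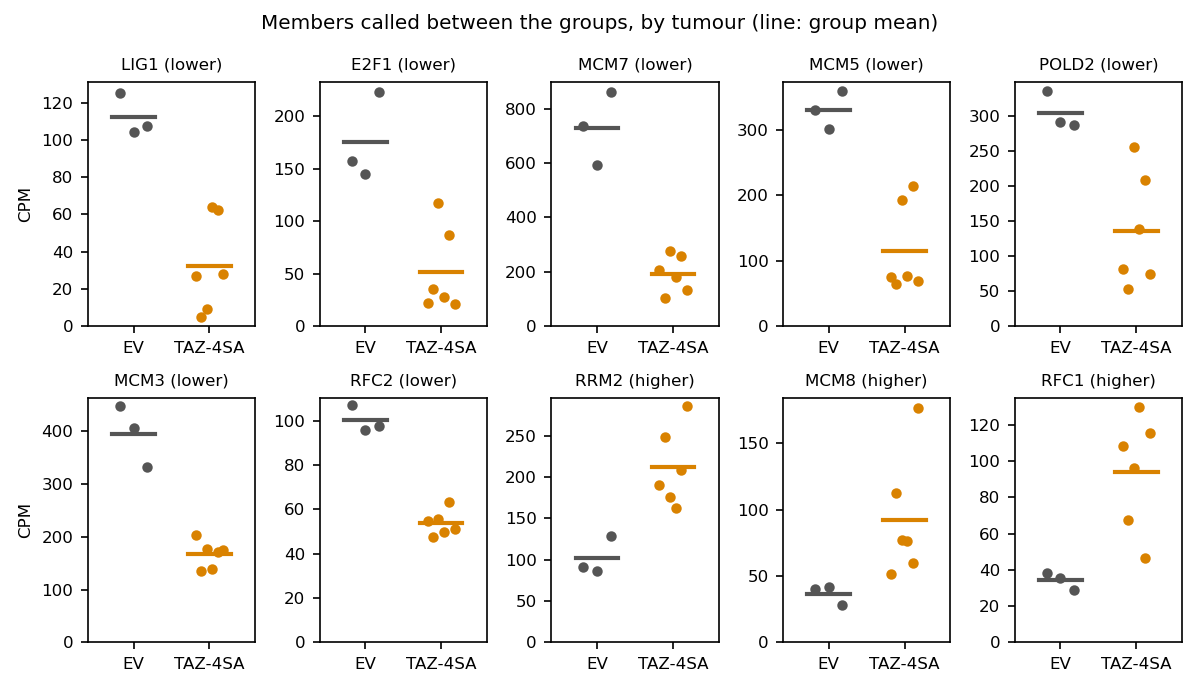
CPM (y axis, from 0, a separate scale for each gene) of the 10 genes called between the groups in 3 EV and 6 TAZ-4SA tumours, with a point per tumour and a line at the group mean. In none of the 10 do the groups overlap; MCM7 shows 592 to 861 CPM in EV and 101 to 276 CPM in TAZ-4SA.

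As the 6 subunits form a hexamer with 1 copy of each, their proportions at the RNA level were also set out, a choice made after the values were seen and given with no test. Of the summed CPM per kb of MCM2 to MCM7, MCM7 made up 36.6 to 44.7% in EV tumours and 17.8 to 27.6% in TAZ-4SA tumours. MCM4 made up 7.44 to 7.81% in EV and 14.3 to 21.2% in TAZ-4SA, and MCM6 5.96 to 6.98% and 9.21 to 18.5%. For these 3 subunits the ranges of the groups did not overlap. The shares of MCM2, MCM3 and MCM5 overlapped between the groups. The ratio of MCM7 to MCM6 per kb was 5.85, 5.25 and 7.50 in EV tumours 1 to 3 and 1.67, 0.959, 2.32, 1.30, 2.80 and 1.14 in TAZ-4SA tumours 1 to 6. The highest subunit exceeded the lowest by 5.25 to 7.50 times in EV and by 2.32 to 3.74 times in TAZ-4SA. Transcript GC differs among them, from 43.12% in MCM6 and 48.53% in MCM4 to 58.10% in MCM7 and 58.14% in MCM2.

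**Figure D3:**
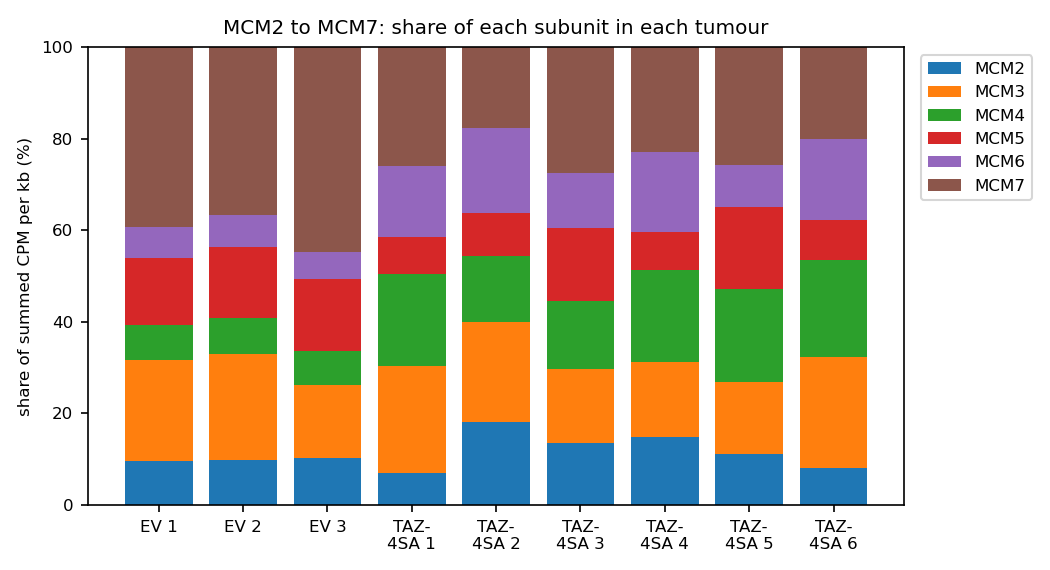
Share of each subunit (y axis, % of the summed CPM per kb of MCM2 to MCM7) in each of the 9 tumours (x axis). The brown part, MCM7, takes 36.6 to 44.7% in the EV tumours and 17.8 to 27.6% in the TAZ-4SA tumours, while the green MCM4 and purple MCM6 parts are wider in all 6 TAZ-4SA tumours.

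None of the 6 origin recognition genes, which encode the complex that marks origins, passed the test. The fold changes of ORC2, ORC3 and ORC4 were positive, and the sign of ORC2 changed with the scaling. ORC3 had the highest, with 55.6, 42.9, 61.4, 62.4, 21.3 and 32.4 CPM in TAZ-4SA and 28.3, 27.4 and 15.0 CPM in EV (0.92 ± 0.46, limma adjusted p = 0.17). Only TAZ-4SA tumour 5 fell within the EV range. ORC6 had the lowest, with 28.2, 2.62, 0, 20.4, 14.0 and 4.89 CPM in TAZ-4SA and 22.9, 18.9 and 31.3 CPM in EV (-2.25 ± 1.53, limma adjusted p = 0.30). TAZ-4SA tumour 3 had 0 reads, which at its depth allows up to 0.184 CPM by counting error, while tumour 1 was at the EV level.

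Licensing factors gave no call either. CDT1, which brings the helicase to the origin, was at 19.1, 33.1, 70.0, 10.7, 91.2 and 31.2 CPM in TAZ-4SA and 82.9, 76.5 and 132 CPM in EV (-1.50 ± 0.61, limma adjusted p = 0.095). Tumour 5 reached the EV range. Geminin (GMNN), the inhibitor of CDT1, was at 40.2, 22.4, 16.8, 23.0, 22.9 and 16.2 CPM in TAZ-4SA and 29.7, 26.9 and 23.2 CPM in EV (-0.23 ± 0.48, limma adjusted p = 0.74), with overlapping groups. CDC6, the loader ATPase, ranged from 0.615 to 79.0 CPM in TAZ-4SA around the EV range of 39.0 to 62.0 CPM.

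Of the 8 origin firing genes none passed the test. DBF4, the regulatory subunit of the CDC7 kinase, was at 91.9, 59.8, 40.1, 88.1, 22.9 and 78.2 CPM in TAZ-4SA and 22.6, 15.1 and 35.1 CPM in EV (1.32 ± 0.50, limma adjusted p = 0.077). Of the 6 tumours, 5 lay above EV and tumour 5 did not. CDC7 itself had overlapping groups, at 14.3 to 58.1 and 29.4 to 32.4 CPM (-0.22 ± 0.53, limma adjusted p = 0.78). The GINS complex, which joins CDC45 and MCM2-MCM7 in the working helicase, was uneven. GINS3 was at 0, 3.53, 0, 34.5, 12.3 and 9.47 CPM in TAZ-4SA and 30.1, 23.4 and 30.9 CPM in EV (-3.42 ± 1.82, limma adjusted p = 0.19), and its 2 tumours at 0 reads, 1 and 3, weigh on that value. GINS2 (3.33 to 20.2 against 40.2 to 48.7 CPM) and GINS4 (7.31 to 31.4 against 33.0 to 46.0 CPM) had groups apart without a call (limma adjusted p = 0.065 and 0.095). GINS1 ranged from 9.13 to 102 CPM in TAZ-4SA, around 15.5 to 31.7 CPM in EV.

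Of the clamp loader subunits, RFC1 was called higher and RFC2 lower. RFC1, its large subunit, was at 108, 67.6, 96.2, 129.7, 46.5 and 115 CPM in TAZ-4SA and 38.3, 35.5 and 29.1 CPM in EV. All 6 TAZ-4SA tumours were above EV, tumour 5 the least (1.38 ± 0.37, limma adjusted p = 0.021). RFC2, a small subunit, was at 55.0, 47.4, 55.8, 49.9, 63.2 and 51.0 CPM in TAZ-4SA and 107, 95.9 and 97.8 CPM in EV. Both groups were tight and apart (-0.90 ± 0.28, limma adjusted p = 0.036). Under quantile normalization RFC2 was not called, and leaving out any one of the EV tumours ended the calls of RFC1 and RFC2. The 2 transcripts differ in GC content, 41.59% in RFC1 and 53.63% in RFC2. With the GC trend removed, as described below, neither was called (0.29 and -0.40, limma adjusted p = 0.60 and 0.34). RFC3, RFC4 and RFC5 were not called, with log2 fold changes of 0.43, -0.32 and -0.85. PCNA, the clamp, ranged from 63.7 to 275 CPM in TAZ-4SA around 139 to 186 CPM in EV (-0.18 ± 0.43, limma adjusted p = 0.79).

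Among the 9 polymerase and primase genes 1 passed the test. POLD2, a regulatory subunit of the lagging-strand polymerase delta, was at 80.7, 52.2, 256, 138, 208 and 73.7 CPM in TAZ-4SA and 335, 291 and 287 CPM in EV. TAZ-4SA tumours 3 and 5 came close to EV (-1.40 ± 0.47, limma adjusted p = 0.049), and the call was lost in 15 of 23 alternatives, including each that left out an EV tumour. POLD1, the catalytic subunit, split further, at 14.4, 0, 161, 20.6, 119 and 18.6 CPM in TAZ-4SA and 139, 168 and 122 CPM in EV (-3.16 ± 1.74, limma adjusted p = 0.21). Tumours 3 and 5 were again at or near the EV level and tumour 2 had 0 reads. PRIM2, the large primase subunit, had the highest value of the group, at 24.7, 37.4, 33.9, 44.6, 21.0 and 14.4 CPM in TAZ-4SA and 16.5, 14.8 and 11.6 CPM in EV (0.95 ± 0.53, limma adjusted p = 0.21). Its groups overlapped only through tumour 6. POLE, the leading-strand polymerase, was at 62.9 to 210.1 CPM against 198 to 245 CPM (-1.08 ± 0.40, limma adjusted p = 0.069).

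RPA, the trimer that coats single-stranded DNA, gave no call in 3 genes. RPA2 was at 67.9, 54.0, 0.0615, 17.8, 23.2 and 56.5 CPM in TAZ-4SA and 84.5, 95.4 and 47.8 CPM in EV (-2.17 ± 1.55, limma adjusted p = 0.33). RPA3 was at 26.5, 40.3, 26.6, 14.2, 12.3 and 51.0 CPM in TAZ-4SA and 39.8, 36.9 and 36.9 CPM in EV (-0.58 ± 0.52, limma adjusted p = 0.43). In both genes the groups overlapped. LIG1, the ligase that seals Okazaki fragments, was at 26.6, 4.54, 9.04, 63.8, 62.1 and 27.8 CPM in TAZ-4SA and 125, 104 and 108 CPM in EV. All 6 were below EV (-2.32 ± 0.75, limma adjusted p = 0.044), and the call was lost in 12 of 23 alternatives, among them each that left out an EV tumour or TAZ-4SA tumour 1, 3 or 6. FEN1, which trims the flaps before ligation, was at 107, 147, 115, 110.3, 98.5 and 52.6 CPM in TAZ-4SA and 206, 169 and 174 CPM in EV, with groups apart and no call (-0.86 ± 0.33, limma adjusted p = 0.079).

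For dNTP supply, RRM2, the S-phase subunit of ribonucleotide reductase, was at 191, 248, 176, 163, 208 and 286 CPM in TAZ-4SA and 91.5, 86.7 and 128 CPM in EV. Every TAZ-4SA tumour was above every EV tumour (1.05 ± 0.28, limma adjusted p = 0.018), and the call was lost without EV tumour 1 or EV tumour 2. RRM2 has 3 named pseudogenes, so some of its reads are uncertain. RRM1, the large subunit, was at 59.9 to 104 CPM against 54.1 to 65.9 CPM (0.49 ± 0.29, limma adjusted p = 0.24). TYMS, which makes thymidylate, was at 24.5, 0, 28.9, 29.2, 31.1 and 12.5 CPM in TAZ-4SA and 41.6, 36.5 and 44.1 CPM in EV, below EV in all 6 tumours but not called (-1.98 ± 1.49, limma adjusted p = 0.35).

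E2F1, an activator of these genes, was at 22.1, 35.6, 117, 27.9, 86.8 and 21.4 CPM in TAZ-4SA and 158, 145 and 223 CPM in EV. Tumours 3 and 5 were the highest of the 6, and none reached EV (-2.06 ± 0.55, limma adjusted p = 0.019). Leaving out any one of the EV tumours ended this call. E2F2 was at 8.01, 0, 4.12, 28.9, 45.9 and 18.3 CPM in TAZ-4SA and 51.8, 41.5 and 81.9 CPM in EV, where only tumour 5 reached the EV range (-2.99 ± 1.51, limma adjusted p = 0.17).

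The TAZ-4SA tumours varied among themselves far more than the EV tumours did. The median SD of log2 CPM over the 49 genes was 0.81 in TAZ-4SA and 0.21 in EV, and over all genes tested it was 1.50 and 0.27. Among the 11768 genes with a mean of 5 to 400 CPM it was 1.10 and 0.25. In TAZ-4SA tumours, 5 genes had 0 reads somewhere (ORC6, GINS3, POLD1, TYMS and E2F2) and none in an EV tumour. That is 10.2% of the genes, against 45.2% of all genes tested and 30.34% of those with a mean of 5 to 400 CPM. TAZ-4SA tumour 2 had the lowest value of the 6 for 16 of the genes and tumour 4 the highest for 12. Between 26 and 32 of the 49 genes lay below all EV tumours in any 1 TAZ-4SA tumour, and between 8 and 19 above them. These counts by tumour were not made over all genes. In the TAZ-4SA tumours, the median deviation from the EV mean was -0.79 to -0.38 over the 49 genes. Over all genes tested it was -1.21 to -0.18, so a downward shift was not particular to the 49.

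**Figure D4:**
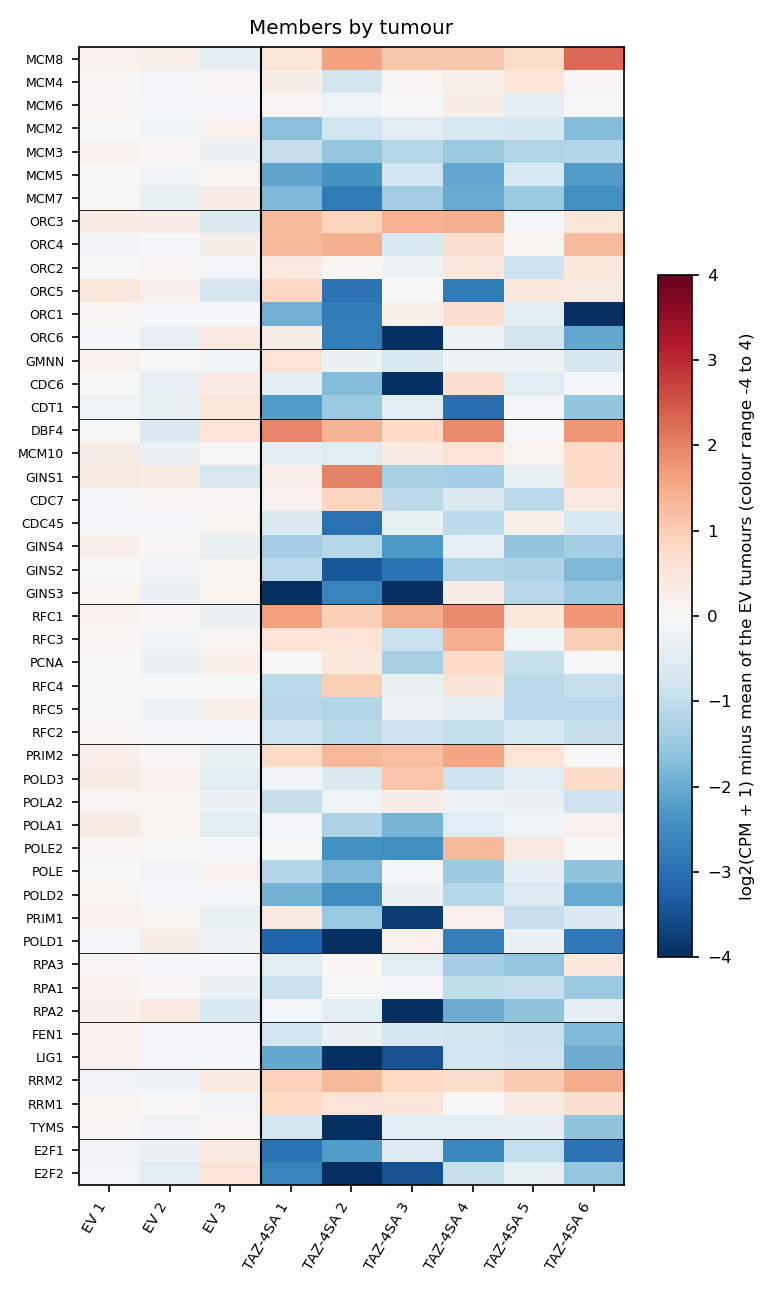
Difference of log2(CPM + 1) from the mean of the EV tumours (colour, from -4 to 4) for the 49 genes (rows, by role) in 3 EV and 6 TAZ-4SA tumours (columns). MCM7, MCM3, RFC2, LIG1 and E2F1 are blue and RRM2, RFC1 and MCM8 red in all 6 TAZ-4SA tumours, whereas POLD1 and RPA2 are dark in some tumours only.

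The direction of change went with the base composition of the transcript. The 3 genes called higher had a GC content of 41.59 to 42.58% and the 7 called lower 51.59 to 62.49%, and the 39 others 37.72 to 64.91%. Across the 49 genes, which share libraries and are not independent replicates, Pearson's r between GC and log2 fold change was -0.67 and Spearman's rho -0.71. Across 13950 genes with a transcript in GENCODE release 29 they were -0.47 and -0.52. Among all genes, the GC decile with the lowest content had a median log2 fold change of 0.89 and the highest decile -2.50. Each tumour's deviation in log2 level from the mean of the EV tumours correlated with GC across all genes, with r of -0.46, -0.45, -0.16, -0.45, -0.19 and -0.47 in TAZ-4SA tumours 1 to 6 and -0.17, 0.21 and -0.06 in EV tumours 1 to 3, whose own levels enter that mean. TAZ-4SA tumours 3 and 5, with the weakest relation of the 6, were those in which MCM5, MCM7, POLD1, POLD2 and E2F1, all rich in GC and picked here after their values were seen, came closest to EV. Of the other genes with at least 56.4% GC, CDT1 and POLE also came closest in tumours 3 and 5. LIG1 and E2F2 did so in tumours 4 and 5, and MCM2 in tumours 3 and 4.

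When the GC trend of each tumour was removed, an alternative chosen after seeing the data, 0 of the 49 genes were called higher and 4 lower, against 5.82% and 8.8% of 13950 genes. MCM3 (-0.97, limma adjusted p = 0.011) and MCM7 (-1.02, limma adjusted p = 0.012) were still called. MCM6 (-0.89, limma adjusted p = 0.035) and CDC7 (-1.63, limma adjusted p = 0.025), both low in GC, were called in addition. For RRM2, RFC1 and MCM8 the log2 fold changes became 0.11, 0.29 and 0.21 (limma adjusted p = 0.82, 0.60 and 0.74). For MCM5, RFC2, POLD2, LIG1 and E2F1 they became -0.89, -0.40, -0.33, -1.11 and -0.70, none called (limma adjusted p = 0.064, 0.34, 0.49, 0.34 and 0.24). The same step also ended the call of WWTR1 (0.25, limma adjusted p = 0.67), so it can remove a difference that the labels give. The GC content used for WWTR1, 40.85%, is that of its GENCODE transcript, and that of the introduced sequence is not given. With the length of the transcript removed as well, 5 genes were called lower, MCM3, MCM5, MCM6, MCM7 and CDC7.

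**Figure D5:**
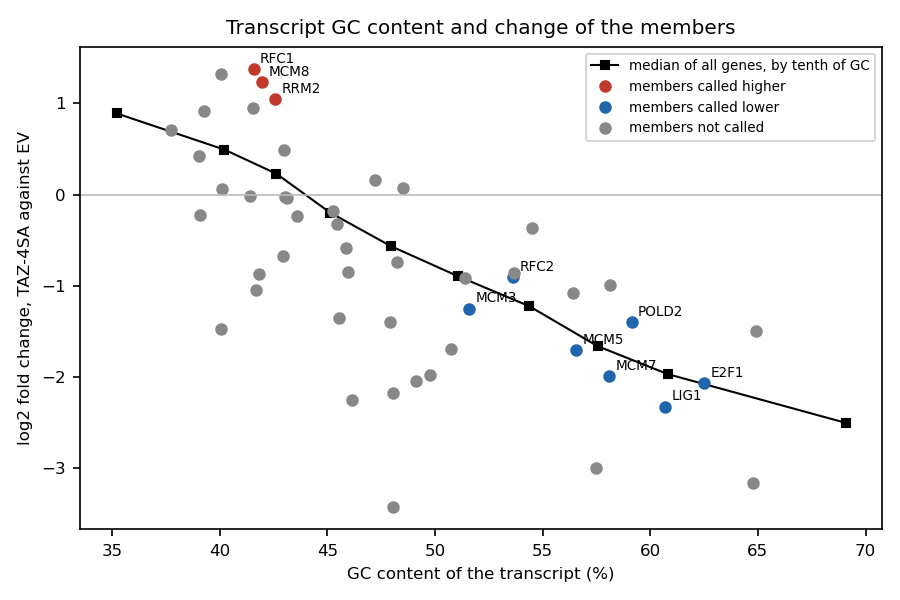
Log2 fold change (y axis, TAZ-4SA against EV) against the GC content of the transcript (x axis, %) for the 49 genes, coloured by call, with black squares at the median of all genes in each GC decile, placed at the middle of its range. The medians fall from 0.89 to -2.50, and the called genes lie near 42% GC when higher and above 51% when lower.

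Other genes of the pathway gave the following counts. Beside them, 9.02% of all genes tested were called higher and 13.3% lower, with a median log2 fold change of -0.85. Of 30 other fork and origin factors, 2 rose and 4 fell (median log2 fold change -0.38). RIF1, a regulator of origin timing, averaged 69.0 ± 16.7 CPM with TAZ-4SA (SD, n = 6) and 15.2 ± 8.62 CPM in EV (SD, n = 3), a log2 fold change of 2.28 (limma adjusted p = 0.0023). TIMELESS, of the fork protection complex, was at 52.2 ± 19.6 and 129 ± 21.2 CPM (-1.43, limma adjusted p = 0.044). RNASEH2B was also called higher, and RNASEH2C, LRWD1 and CHTF18 lower, none of them after removal of the GC trend. Among 11 genes of replication-coupled histone assembly 0 rose and 2 fell (median -0.58). They were CHAF1A, a subunit of the chromatin assembly factor (-1.53, limma adjusted p = 0.029), and NASP, a histone chaperone (-1.0, limma adjusted p = 0.036). Of 15 other genes of nucleotide supply 2 rose and 1 fell (median -0.79). RRM2B, the p53-inducible partner of RRM1, averaged 100.1 ± 21.5 CPM with TAZ-4SA and 12.3 ± 3.17 CPM without (3.01, limma adjusted p = 1.2e-04), PAICS of purine synthesis rose by 1.20 and SLC29A1, a nucleoside transporter, was at -2.96 (limma adjusted p = 0.0051 and 0.0071). After removal of the GC trend described above, RRM2B (1.32, limma adjusted p = 0.022), NASP (-1.36, limma adjusted p = 0.0021) and SLC29A1 (-2.10, limma adjusted p = 0.027) were called, and RIF1, TIMELESS, CHAF1A and PAICS were not.

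Regulators of the cycle are given beside the shares of all genes, 9.02% higher and 13.3% lower. Of 21 E2F and RB regulators 4 rose and 0 fell, with a median log2 fold change of -0.33 and 13 of 21 values negative, and after removal of the GC trend 1 was called higher and 1 lower. Those that rose were E2F7, a repressor of E2F targets (3.02), LIN54, a subunit of the DREAM complex (2.34), RB1, the restraint on E2F (2.16), and CCNA2, cyclin A of S phase and G2 (2.12), with limma adjusted p of 0.0081, 0.0046, 0.0070 and 0.0017. Of 13 tested genes of the replication checkpoint and fork repair, out of 14 in the table, WEE1 rose (1.41, limma adjusted p = 0.037) and 0 fell (median -0.26). Of 24 mitosis and G2/M genes 6 rose and 0 fell, with a median of 0.38. MKI67, the proliferation marker, averaged 628 ± 167 CPM with TAZ-4SA and 324 ± 25.8 CPM without (0.91, limma adjusted p = 0.029), and TOP2A at 239.8 ± 84.3 and 70.8 ± 15.0 CPM (1.71, limma adjusted p = 0.0037). Of 8 tested G1 cyclins and CDK inhibitors 2 rose and 2 fell (median -0.75). CCND1, cyclin D1, was at 537 ± 84.1 and 155 ± 38.9 CPM (1.81, limma adjusted p = 4.7e-04), CDK6 had a log2 fold change of 2.47 and CCND3 of -2.33 (limma adjusted p = 2.1e-04 and 0.013). Removal of the GC trend ended most of these calls. TOP2A, ASPM, CENPE, CENPF and TTK, with 35.28 to 40.83% GC, were then not called, nor were CCNA2 (1.11, limma adjusted p = 0.081), LIN54 (0.94, limma adjusted p = 0.30), RB1 (0.56, limma adjusted p = 0.33), CDK6 (1.11, limma adjusted p = 0.059) and CCND3 (-1.17, limma adjusted p = 0.16). MKI67 (0.80, limma adjusted p = 0.030), E2F7 (2.17, limma adjusted p = 0.040), WEE1 (1.65, limma adjusted p = 0.023) and CCND1 (1.94, limma adjusted p = 1.3e-04) were still called. CCND2, called lower in the main fit (-5.47, limma adjusted p = 0.041), was still called lower (-5.96, limma adjusted p = 0.045). It had 0 reads in 4 TAZ-4SA tumours. With length removed as well, MKI67 (0.41, limma adjusted p = 0.35) and E2F7 (1.99, limma adjusted p = 0.055) were not called, and CCND2 was (-6.21, limma adjusted p = 0.032).

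The genes most like the average pattern of the 49 over 9 tumours were CBX8, CCDC146, HNRNPA1P10, POLR2F, PNMA5, NREP, PHLPP1, SUPT6H, PPIB and ALAD, with Pearson correlations of 0.95 to 0.96. The averaged standardized level was 0.27 to 0.46 in EV tumours and -0.43 to 0.08 in TAZ-4SA tumours, and all 10 genes had a higher mean in EV. The likeness is therefore mostly one of group level, and none of the 10 belongs to the lists used here.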

How the data were processed

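Per the labels' protocols, total RNA from 9 tumours was extracted with TRIzol and made into libraries with SMART-Seq and Nextera XT kits, which keep no strand. HISAT2, edgeR and GRCh38 are named, without roles, in the submitters' processing notes, and how mouse reads were treated or genes counted is not given in the sources used here. Values deposited by the authors are log2 CPM with a shared lowest value of -2.786 (0.145 CPM). After its removal, 100% of values under 5000 reads were whole multiples of 1 read within 0.1, and these gave CPM, totals and reads. The unit log2 was read from the values.

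Groups were compared with limma 3.58.1 in R 4.3.3, using the trend and robust options of its empirical Bayes step, on the log2 values as deposited. The 15578 genes whose mean reached 1 CPM entered, with Benjamini-Hochberg adjustment at 0.05. Fold changes include the authors' prior and are positive where TAZ-4SA (n = 6) is higher than EV (n = 3). They can exceed the ratio of means for a gene undetected in some tumours. No 2 tumours of a group agreed within sampling noise. The fit was run on simulated counts with the same dispersion in both groups, unlike these tumours. That run checks the code and does not bear on the calls made here. Transcript GC and length were those of the principal protein-coding transcript of GENCODE release 29. A count of 0 reads was given an upper limit of 3 reads, for counting error only.

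The 49 genes and the other lists were chosen with earlier results of these data known. Values per tumour are given for each called gene and for the genes with the highest and lowest log2 fold change of each role. Values from each other list are given for some of its called genes, which are not always those with the smallest p. Alternatives were pseudocounts of 0.1 and 2 CPM, 2 scalings, no filter or one at 10 CPM, weights per array, the robust step left out, limma-voom on recovered reads, tumours left out, a block on replicate number and, added after seeing the data, removal of GC and length trends. Chromosome 8 windows were not used.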

Additional observations from a re-analysis of the deposited data

Results flagged for a closer look

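Values of the 6 TAZ-4SA tumours were tested in 50 groups, 1 for each gene and WWTR1. In 5 groups the lowest tumour stood far from the other 5 on the log2 scale. No chance rate can be given for this count, since the 50 groups share the same 6 libraries. Levels of 0 or 1 read also stretch the lower end of the log2 scale. The same count was not made over all genes. CDC6 was at 0.615 CPM in TAZ-4SA tumour 3, with the next lowest tumour at 14.0 CPM. PRIM1 and RPA2 were each at 0.0615 CPM in the same tumour, a level of 1 read, with the next lowest at 4.14 and 17.8 CPM. POLD1 had 0 reads (0 CPM) in TAZ-4SA tumour 2, next to 14.4 CPM, and TYMS had 0 reads (0 CPM) in that tumour, next to 12.5 CPM. In tumours 2 and 3, 7365 and 6790 genes of the table had 0 reads. None of the 5 genes was called between the groups, and TYMS remained below EV in all other tumours.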

How the results depend on the processing

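Over 23 alternatives to the main limma fit, MCM7 was called lower in 23, MCM3 in 22, MCM5 in 19, E2F1 in 17, RFC2 in 16, LIG1 in 11 and POLD2 in 8, and RRM2 was called higher in 18, RFC1 in 16 and MCM8 in 8. Leaving out 1 tumour at a time moved the 49 genes' counts between 0 and 5 higher and 2 and 10 lower, those of all genes between 773 and 1692 higher and 677 and 2646 lower, and the WWTR1 log2 fold change between 1.34 and 1.55. Array weights gave 5 higher and 18 lower (2531 and 5630 of all genes). limma-voom gave 12 lower (3646 of all genes). Without TAZ-4SA tumours 2, 3 and 4 there were 1 higher and 14 lower, and without tumours 5 and 6 there were 6 higher. With no filter 3384 of all genes were lower and with a mean of at least 10 CPM 967, where fewer genes were tested. With the GC trend removed, 0 genes were higher and 4 lower (812 and 1228 of all genes, WWTR1 at 0.25), and with GC and length removed 0 higher (802 and 1232 of all genes, WWTR1 at 0.16).

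The labels do not say whether replicate numbers pair the tumours. Deviations of same-numbered tumours correlated at 0.031, 0.004 and -0.047. Those of other pairs lay between -0.088 and 0.077, so these values cannot decide it. With the replicate number as a block 0 genes were called higher and 2 lower, MCM7 and LIG1 (604 of all genes higher), and WWTR1 was not called (1.41, limma adjusted p = 0.059). TAZ-4SA tumours 4 to 6 have no partner in EV, so fewer samples inform that fit.

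Changes of sign were as follows, none in a gene called in the main fit except MCM8. The cause was not tested. Median-of-ratios scaling gave MCM4 -0.022 and ORC2 -0.027. Quantile normalization gave MCM6 0.064, GINS1 0.11, POLD3 0.069 and POLE2 1.53, and moved the median of all genes from -0.85 to -0.15. A pseudocount of 2 CPM gave GINS1 0.0098, and limma-voom gave MCM6 0.010. The block gave MCM4 -0.13, GINS1 0.28, MCM10 -0.19 and POLD3 0.13. Without TAZ-4SA tumours 2, 3 and 4, ORC2 was -0.0020, ORC5 0.57, GINS1 0.22, POLD3 0.059 and POLE2 0.14. Without tumours 5 and 6, MCM4 was -0.048, MCM6 0.039 and RFC4 0.037. With 1 tumour left out, MCM4 ranged from -0.031 to 0.23, MCM6 from -0.088 to 0.028, ORC2 from -0.022 to 0.25, GINS1 from -0.43 to 0.26, PCNA from -0.36 to 0.059 and POLD3 from -0.27 to 0.14. With the GC trend removed MCM4 was -0.0087, ORC2 -1.22, ORC3 -0.47, ORC4 -0.85, CDT1 0.057, MCM10 -0.087, RFC3 -0.98, POLA2 0.23, PRIM2 -0.14 and RRM1 -0.39. With length removed too MCM4 was -0.052, MCM8 -0.064, ORC2 -1.22, ORC3 -0.23, ORC4 -1.05, CDT1 0.032, MCM10 -0.0012, RFC3 -0.74, POLA2 0.21 and RRM1 -0.26. The totals of 3299325 and 3144861 reads in TAZ-4SA tumours 5 and 6 limit what a low gene can show there.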
